A study of Mus musculus with 26 samples.

Results

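The autosomal protein-coding genes expressed in *Dnmt3a* KO or *Dnmt3b* KO 2i-MEFs, which are fibroblasts grown from embryos that were made with ES cells kept in 2i medium, were compared across the genome in 1 RNA-seq library per genotype. A gene was included when it reached 1 FPKM (the number of fragments scaled to transcript length and to the mapped fragments of the library) in at least 1 of the libraries, after rows of the same symbol were summed. This rule gave 11635 genes of the 20652 autosomal protein-coding genes in the deposited table, which holds 52454 gene symbols in all. The study asked how DNMT3A and DNMT3B share the de novo methylation of somatic cells, and methylation of developmental genes bound by Polycomb proteins was its main concern. The functions of genes outside those developmental families are described here, in each direction of the difference. DNA methylation samples were not analysed here. The deposited RNA-seq libraries include none of WT 2i-MEFs, so they do not show which of the KO libraries differs from WT.

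Both libraries came from female cells with an F1 background of 129X1/SvJ and MSM/Ms, taken from embryos at E14.5 and used at passage p1. The *Dnmt3a* or *Dnmt3b* gene had been disrupted by CRISPR/Cas9 in 2i/L ES cells, which also carried a GFP and neomycin-resistance transgene. These cells were injected into ICR blastocysts, so that the embryos were chimeras. The fibroblasts were then selected with G418 and sorted for GFP to remove cells of the host. The clone behind each library is not given in the sources used here, and genotype, ES cell line, embryo and culture cannot be told apart with 1 library per genotype. No difference below therefore has a replicate check, and no test was made. From the size of the steps between low FPKM values, the depth was estimated as 10932737 mapped reads in *Dnmt3a* KO and 9175856 in *Dnmt3b* KO, and 1 read at a length of 2000 bases then equals 0.0508 and 0.0606 FPKM, respectively. Read numbers given below follow from these depths and the annotated transcript lengths, and cover counting error only.

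DNMT3A and DNMT3B are the enzymes that place methyl groups on unmethylated CpG sites, and DNMT1 copies the pattern when DNA is replicated. Methylation at CpG-rich promoters keeps many germline genes silent in somatic cells, while most other promoters with many CpG sites stay unmethylated. Embryonic fibroblasts make collagens, proteoglycans and proteases of the connective tissue, secrete growth factors and cytokines, and can carry features of cartilage, fat or smooth muscle.

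The labels were first checked at the targeted genes, with each pair of values, here and below, in the order *Dnmt3a* KO against *Dnmt3b* KO. *Dnmt3a* was lower in the library labelled *Dnmt3a* KO, at 4.21 against 23.9 FPKM, and *Dnmt3b* was low in both libraries, at 1.81 against 0.817 FPKM. A disrupted gene can still be transcribed, and the deposited values do not show which exons the reads came from. All 18 fibroblast markers on the list were expressed in both libraries and none differed 2-fold. *Col1a1*, the main chain of type I collagen, was at 3864 against 4241 FPKM, and *Vim*, an intermediate filament of mesenchymal cells, at 3148 against 2693 FPKM.

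Most genes had like levels in the KO libraries. A gene was called higher in 1 genotype when its FPKM + 1 there was at least 2 times that of the other. This held for 501 of the 11635 genes (4.31%) toward *Dnmt3a* KO and for 255 (2.19%) toward *Dnmt3b* KO, while the other 10879 (93.5%) stayed under 2-fold. A gene that reached 1 FPKM in 1 library only entered through the library where it is higher, which was the case for 195 of the 501 and 90 of the 255 genes. Of the 10861 genes that reached this level in each library, 306 were higher in *Dnmt3a* KO and 165 in *Dnmt3b* KO. The log2 ratio, in which *Dnmt3b* KO is the denominator throughout, had a median of 0.03 and lay between -0.71 and 0.93 for the middle 90% of genes. Differences of at least 4-fold were found for 75 genes toward *Dnmt3a* KO and 18 toward *Dnmt3b* KO. Members of developmental transcription factor families made up 26 of the 501 and 10 of the 255 genes. The other 475 and 245 genes are the main subject below. A low level in the higher library was frequent, since 194 of the 501 and 96 of the 255 genes stayed under 5 FPKM there. All ratios are of FPKM + 1, which understates the change of low genes. Shares given below for gene lists are to be read against 4.31% toward *Dnmt3a* KO and 2.19% toward *Dnmt3b* KO, and in a short list a single gene shifts them by several percent.

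**Figure D1:**
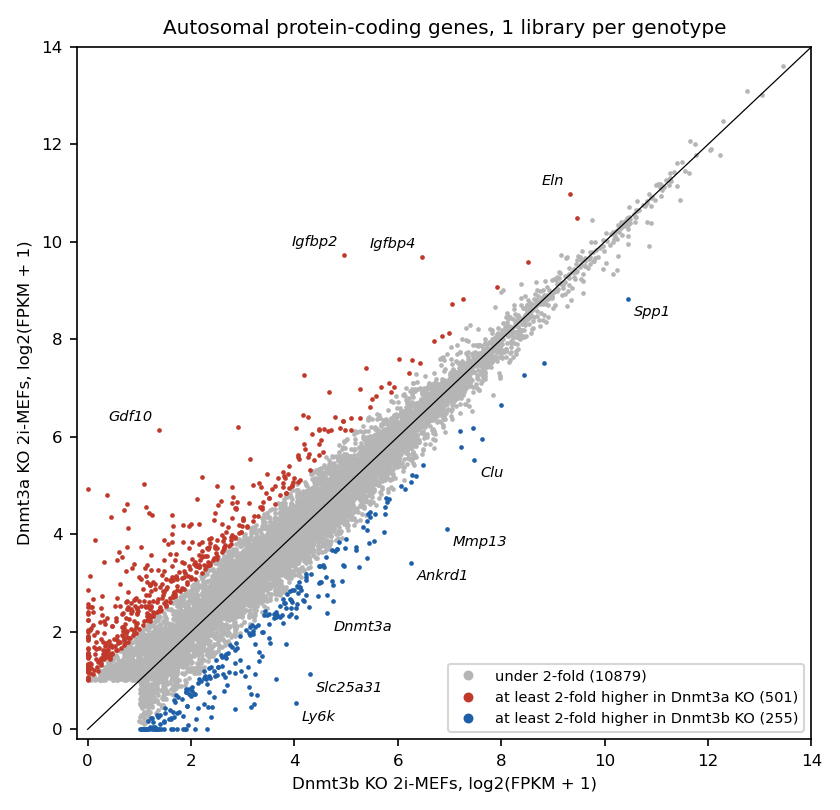
Expression of each of the 11635 genes in *Dnmt3b* KO (horizontal axis) and *Dnmt3a* KO 2i-MEFs (vertical axis), both as log2(FPKM + 1), with 1 point per gene and the line of equal levels. The 501 genes called higher in *Dnmt3a* KO and the 255 called higher in *Dnmt3b* KO are in colour, and the 10879 other genes are in grey along the line.

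The 15 largest differences toward *Dnmt3a* KO, among genes with at least 5 FPKM in the higher library and transcripts of at least 500 bases, are described first. *Gm3625*, a predicted gene with a transcript of 102 bases, had a larger log2 ratio than any of them but rests on a length under that limit and was left out. *Igfbp2*, a secreted protein that binds insulin-like growth factors, was at 847 against 30.2 FPKM (log2 ratio 4.76). *Igfbp4*, a related binding protein, was at 823 against 88.1 FPKM (log2 ratio 3.21). *Gdf10*, a ligand of the TGF-beta superfamily that is close to BMP3, was at 69.6 against 1.61 FPKM (log2 ratio 4.76). These 3 values stood for 195 to 307 reads of *Igfbp2*, 203 to 2936 of *Igfbp4* and 74 of *Gdf10* in the lower library, so none of the low levels rested on a few reads. Among neuropeptide genes, *Npy*, which encodes the neuropeptide Y precursor, was at 26.8 against 0.299 FPKM (log2 ratio 4.42), and the lower value was 1 read. *Penk*, the precursor of the enkephalins, was at 21.7 against 0.6296 FPKM (log2 ratio 3.80). The ferritin receptor gene *Scara5* was at 31.7 against 1.12 FPKM (log2 ratio 3.94).

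Other genes of this group act in cartilage matrix, Wnt signalling and cell contact. *Comp*, the cartilage oligomeric matrix protein, was at 13.8 against 0.0984 FPKM (log2 ratio 3.75), and *Col2a1*, the collagen of cartilage, at 20.8 against 1.29 FPKM (log2 ratio 3.25). *Sfrp2*, a secreted protein that binds Wnt ligands, was at 72.7 against 6.48 FPKM (log2 ratio 3.30). *Pcdh10*, a protocadherin, was at 20.02 against 1.38 FPKM (log2 ratio 3.14), and *Cldn19*, a claudin of tight junctions, at 7.85 against 0.0275 FPKM (log2 ratio 3.11). *Megf6*, *Olfml1* and *Ndnf*, which encode secreted or EGF-repeat proteins, had log2 ratios of 3.88, 3.44 and 3.10. *Abcb1a*, a drug efflux pump, was at 19.6 against 0.372 FPKM (log2 ratio 3.91), and its neighbour and close paralog *Abcb1b* at 13.04 against 1.94 FPKM. Reads that both copies share could have been split between them by the counting, so the share of each is uncertain.

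**Figure D2:**
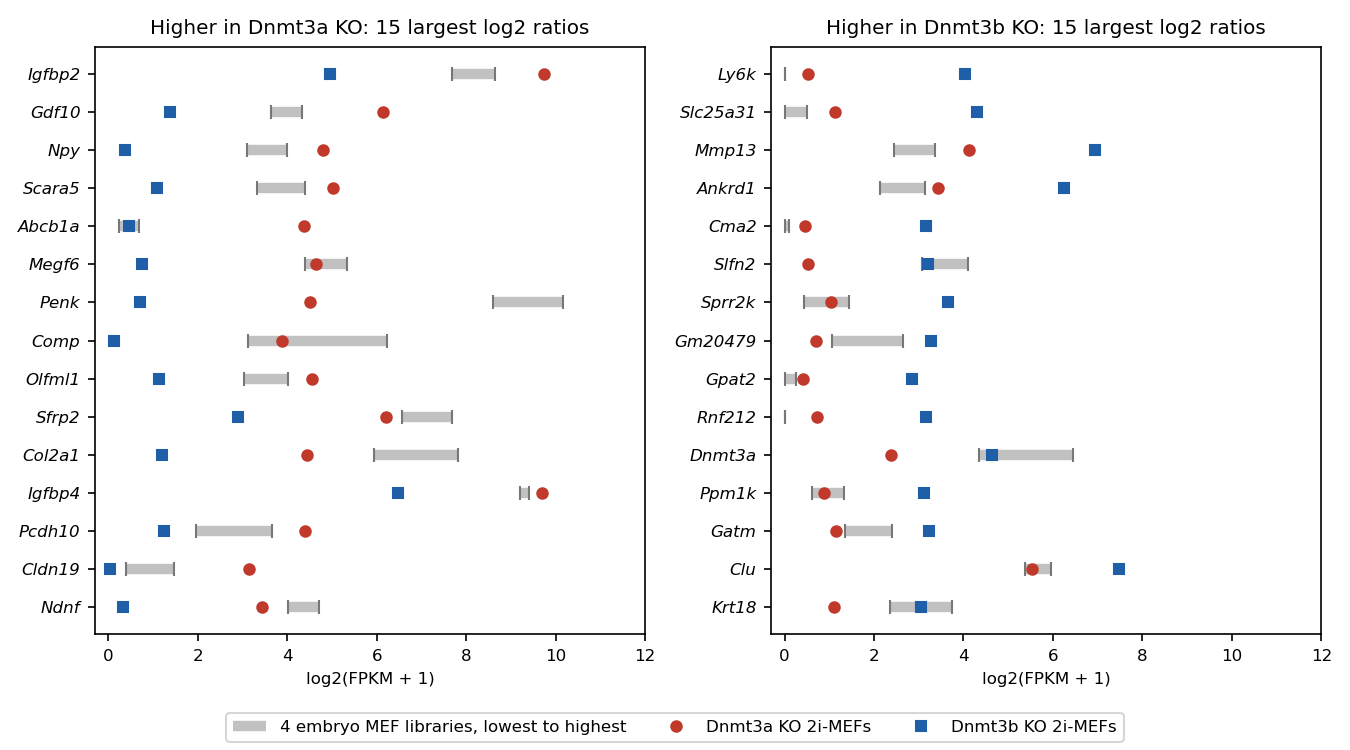
Levels of the 15 genes with the largest log2 ratio in each direction (at least 5 FPKM in the higher library, transcripts of at least 500 bases, developmental transcription factor families left out). Circles are *Dnmt3a* KO and squares *Dnmt3b* KO 2i-MEFs, 1 library each, and grey bars run from the lowest to the highest of 4 libraries of MEFs taken directly from embryos, all as log2(FPKM + 1). *Igfbp2*, at 847 against 30.2 FPKM, lay above the bar in *Dnmt3a* KO and below it in *Dnmt3b* KO, whereas *Ly6k* and *Rnf212* were listed at 0 in the 4 MEF libraries.

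The promoters of 3 of these genes are shown because *Igfbp2*, *Gdf10* and *Npy* had the largest log2 ratios among the 15 genes. Each sequence is the 250 bases before the gene start (RefSeq, GRCm38.p6), read 5′ to 3′ along the gene, with CpG sites in capitals. The *Igfbp2* window lies at chr1:72824230-72824479 on the plus strand and holds 14 CpG sites. The *Gdf10* window lies at chr14:33923337-33923586 on the plus strand and holds 35. The *Npy* window lies at chr6:49822460-49822709 on the plus strand and holds 21.
Igfbp2: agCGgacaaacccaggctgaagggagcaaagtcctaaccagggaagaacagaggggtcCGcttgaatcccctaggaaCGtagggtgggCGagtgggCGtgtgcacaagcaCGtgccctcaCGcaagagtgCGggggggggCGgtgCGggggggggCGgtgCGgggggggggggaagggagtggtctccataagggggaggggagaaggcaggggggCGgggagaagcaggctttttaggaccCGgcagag
Gdf10: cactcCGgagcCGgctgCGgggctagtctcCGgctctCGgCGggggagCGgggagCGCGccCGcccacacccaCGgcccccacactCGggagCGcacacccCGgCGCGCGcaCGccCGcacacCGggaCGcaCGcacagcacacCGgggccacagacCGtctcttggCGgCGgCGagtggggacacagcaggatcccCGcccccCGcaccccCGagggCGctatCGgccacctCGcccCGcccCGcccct
Npy: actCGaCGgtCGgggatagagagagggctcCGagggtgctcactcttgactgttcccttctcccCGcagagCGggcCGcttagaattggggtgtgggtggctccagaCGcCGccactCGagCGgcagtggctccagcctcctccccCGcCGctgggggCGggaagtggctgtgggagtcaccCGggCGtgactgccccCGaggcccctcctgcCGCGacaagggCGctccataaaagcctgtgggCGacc

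Genes of cartilage that differed were all higher in *Dnmt3a* KO. Of the 18 expressed members among 24 listed, 8 were higher in *Dnmt3a* KO (44.4%) and 0 in *Dnmt3b* KO. The 18 had a median log2 ratio of 0.78 beside 0.03 over all 11635 genes. Of these 8 genes, 5 reached 1 FPKM only through *Dnmt3a* KO, and the 9 members with 1 FPKM in both libraries had a median of 0.37, 3 of them higher in *Dnmt3a* KO. Besides *Comp* and *Col2a1*, they included *Col9a2*, a type IX collagen chain, at 6.08 against 0.721 FPKM, and *Matn4*, a matrilin, at 4.804 against 0.534 FPKM. *Pth1r*, the receptor of parathyroid hormone and its related protein, was at 22.2 against 6.27 FPKM. *Hapln1*, the link protein of aggrecan, was at 1.39 against 0.0395 FPKM, and *Cnmd*, or chondromodulin, at 1.095 FPKM in *Dnmt3a* KO and listed at 0 in *Dnmt3b* KO. *Sox9*, the transcription factor that drives cartilage formation and no member of the list, was at 5.02 against 2.13 FPKM and stayed under 2-fold (log2 ratio 0.94). *Acan*, the aggrecan core protein, was at 2.995 against 2.09 FPKM (log2 ratio 0.37). In bulk libraries, fewer cells of a type and less RNA per cell cannot be told apart.

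Matrix genes outside cartilage varied by family. Among small leucine-rich and large proteoglycans, 7 of 22 members were higher in *Dnmt3a* KO (31.8%) and 0 in *Dnmt3b* KO (median log2 ratio 0.66). Of these, 3 reached 1 FPKM only through *Dnmt3a* KO, and the 17 members at that level in each library had a median of 0.37. *Prelp* was at 25.6 against 3.31 FPKM and *Fmod*, or fibromodulin, at 30.6 against 9.22 FPKM, both of them proteins that bind collagen. *Eln*, or tropoelastin, was the most abundant of the 501 genes at 2010.4 against 647 FPKM (log2 ratio 1.63). *Mfap4*, a protein of elastic fibres, was at 542 against 241 FPKM, and *Wisp2*, a secreted matricellular protein, at 426 against 132 FPKM. The main fibrillar collagens had like levels, with *Col1a2* at 3790.2 against 4192 FPKM and *Col3a1* at 8810.4 against 6951 FPKM. In the list of fibrillar and associated collagens, 4 of 17 members were past 2-fold, all toward *Dnmt3a* KO, and these were *Col2a1*, *Col9a2*, *Col9a3* and *Col5a3*. The tendon list had 3 of 11 members higher in *Dnmt3a* KO (27.3%), led by the secreted protease *Htra3* at 153 against 17.2 FPKM.

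Genes of fat cells and lipid transport had 10 of 23 members higher in *Dnmt3a* KO (43.5%) and 0 in *Dnmt3b* KO (median log2 ratio 0.41), and 3 of the former entered only through *Dnmt3a* KO. *Apoe*, which carries lipids in lipoproteins, was at 457 against 153 FPKM, and *Apoc1*, its neighbour on chromosome 7, at 8.32 against 3.31 FPKM. *Zfp423*, a transcription factor of fat cell precursors, was at 10.1 against 1.796 FPKM, and *Cebpa*, a transcription factor of fat cell formation, at 14.4 against 5.84 FPKM. *Dpp4* at 2.42 against 0.276 FPKM and *Pi16* at 2.26 against 0.256 FPKM, both known from fibroblast progenitors of fat tissue, were low in each library. *Pparg*, the receptor that drives fat cell formation, was not among them, at 6.83 against 8.08 FPKM (log2 ratio -0.21). Nor was the lipoprotein lipase *Lpl*, at 45.3 against 44.8 FPKM.

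Chemokines and their receptors had 8 of 18 members higher in *Dnmt3a* KO (44.4%) and 0 in *Dnmt3b* KO (median log2 ratio 0.59). *Cxcl1*, an attractant of neutrophils, was at 13.7 against 1.78 FPKM. *Cxcl15*, *Cxcl5* and *Ppbp*, further CXC chemokines of the same cluster on chromosome 5, were at 2.52 against 0.3396 FPKM, 30.2 against 12.7 FPKM and 19.7 against 8.28 FPKM. The chemokine with the highest level had the opposite sign, since *Cxcl12* was at 648 against 1141 FPKM (log2 ratio -0.81), under 2-fold. Among cytokines and receptors, 8 of 41 were higher in *Dnmt3a* KO (19.5%) and 2 in *Dnmt3b* KO, of which 3 and 1 had 1 FPKM in the higher library only. *Ptx3*, a pentraxin of innate immunity, was at 168 against 40.6 FPKM, and *Icam1*, an adhesion molecule for leukocytes, at 8.52 against 1.78 FPKM. *Ptgs2*, the inducible cyclooxygenase, was lower at 4.05 against 11.7 FPKM. In the complement list, 5 of 25 members were higher in *Dnmt3a* KO (20%) and 1 in *Dnmt3b* KO, and 2 of the former entered only through *Dnmt3a* KO. *Serping1*, the inhibitor of complement C1, was at 86.3 against 16.9 FPKM. The 3 C1q chain genes *C1qa*, *C1qb* and *C1qc* were at 2.398 against 0.6496 FPKM, 3.403 against 1.11 FPKM and 3.47 against 0.653 FPKM. *Clu*, or clusterin, which blocks the membrane attack complex and acts as a chaperone, was the member higher in *Dnmt3b* KO, at 44.99 against 177 FPKM (log2 ratio -1.95).

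Among insulin-like growth factors and binding proteins, 4 of 16 members were higher in *Dnmt3a* KO (25%) and 0 in *Dnmt3b* KO. Besides *Igfbp2* and *Igfbp4*, they included *Igfbp5*, which adjoins *Igfbp2* on chromosome 1, at 247.7 against 104 FPKM. In the Wnt pathway, 9 of 41 members were higher in *Dnmt3a* KO (21.95%) and 2 in *Dnmt3b* KO (median log2 ratio 0.36). The higher members held ligands and antagonists alike. *Wnt16*, a ligand, was at 34.7 against 11.8 FPKM, *Rspo2*, an R-spondin that strengthens Wnt signals, at 56.7 against 17.2 FPKM, and *Sfrp4*, a secreted antagonist, at 84.2 against 18.2 FPKM. The antagonists *Dkk2* and *Frzb* were higher in *Dnmt3b* KO, at 4.05 against 13.9 FPKM and 5.201 against 17.3 FPKM. In the BMP pathway, 4 of 27 members were higher in *Dnmt3a* KO (14.8%), among them the ligand *Bmp4* at 82.4 against 33.3 FPKM and the target gene *Id2* at 46.9 against 15.8 FPKM. *Bmper*, a modulator of BMP signals, and *Bmpr1b*, a receptor, were higher in *Dnmt3b* KO, at 13.9 against 30.8 FPKM and 2.405 against 6.32 FPKM. Of the 21 members of the TGF-beta and activin pathway, none differed 2-fold in either direction (median log2 ratio -0.08).

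Cell adhesion genes were examined by family. Outside the clusters on chromosome 18, 8 of 24 cadherins and protocadherins were higher in *Dnmt3a* KO (33.3%) and 0 in *Dnmt3b* KO. Only 4 of the 8 were among the 20 members with 1 FPKM in each library, and the other 4, *Celsr2* included, entered through *Dnmt3a* KO. After *Pcdh10*, the largest ratios were at the classical cadherin *Cdh4* at 7.17 against 1.22 FPKM and at *Celsr2*, a planar polarity receptor, at 2.84 against 0.0943 FPKM. Of the 29 expressed clustered protocadherins, 5 were higher in *Dnmt3a* KO (17.2%) and 4 in *Dnmt3b* KO (13.8%). All 5 of the former entered only through *Dnmt3a* KO, and among the 20 members with 1 FPKM in each library 0 were higher in *Dnmt3a* KO and 4 in *Dnmt3b* KO. Examples of the gamma cluster are *Pcdhgb7* at 3.46 against 0.262 FPKM and *Pcdhga3* at 2.86 against 7.81 FPKM. These genes share constant exons, and how the authors' counting divided the shared reads is uncertain. Integrins had 0 of 17 members higher in *Dnmt3a* KO and 3 in *Dnmt3b* KO (17.6%, median log2 ratio -0.30), such as *Itga4*, which binds fibronectin, at 1.42 against 4.71 FPKM. *F11r*, a junctional adhesion molecule, was at 9.07 against 37.04 FPKM and *Ncam1*, the neural cell adhesion molecule, at 29.6 against 69.3 FPKM, both higher in *Dnmt3b* KO. *Jam2*, a relative of *F11r*, had the opposite direction at 13.05 against 3.43 FPKM.

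In the glutathione and NRF2 target list, 7 of 40 members were higher in *Dnmt3a* KO (17.5%) and 1 in *Dnmt3b* KO. The adjacent glutathione transferase genes *Gstt3* and *Gstt1* were at 13.45 against 3.61 FPKM and 7.67 against 2.09 FPKM. *Gsto1*, another transferase, was the member higher in *Dnmt3b* KO, at 153 against 348 FPKM. Among immediate early genes, *Fos* was at 71.5 against 15.5 FPKM and *Fosb* at 4.76 against 0.881 FPKM. *Ankrd1*, a muscle ankyrin repeat protein also known as a target of YAP, was at 9.71 against 74.99 FPKM (log2 ratio -2.83), so that the 28 members of this list were split, with 2 higher in *Dnmt3a* KO and 1 higher in *Dnmt3b* KO.

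Receptors, channels and transporters were also found on both sides. Of 41 growth factors and receptors of the EGF, PDGF, VEGF and neurotrophin families, 4 were toward *Dnmt3a* KO (9.76%). Among them were *Ntrk3*, a neurotrophin receptor, at 16.997 against 2.13 FPKM, and *Kit*, the stem cell factor receptor, at 4.75 against 1.06 FPKM. The VEGF receptors *Flt1* and *Flt4* were toward *Dnmt3b* KO (4.88%), at 4.13 against 14.2 FPKM and 1.13 against 3.799 FPKM. Of 49 axon guidance genes, 3 were toward *Dnmt3a* KO (6.12%, near the 4.31% of all genes) and none toward *Dnmt3b* KO, with *Robo2*, a Slit receptor, at 12.4 against 1.035 FPKM and *Sema3f*, a secreted semaphorin, at 68.9 against 24.2 FPKM. Both Hedgehog pathway genes above 2-fold, among 12, were *Scube1* and *Scube3*, which aid the release of Hedgehog ligands, at 5.26 against 0.8595 FPKM and 2.32 against 0.359 FPKM, and both entered only through *Dnmt3a* KO. In the FGF pathway (24 members) the ligands *Fgf18* and *Fgf7* were toward *Dnmt3a* KO, at 34.8 against 13.1 FPKM and 17.3 against 6.56 FPKM, and *Dusp4*, a phosphatase of MAP kinases, and the ligand *Fgf21* toward *Dnmt3b* KO, *Dusp4* at 3.39 against 8.11 FPKM.

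Among 178 solute carriers, 10 were toward *Dnmt3a* KO and 4 toward *Dnmt3b* KO, shares of 5.62% and 2.25% that lay near the 4.31% and 2.19% of all genes, and 6 of the 10 entered only through *Dnmt3a* KO. *Slc16a7*, a monocarboxylate carrier, was at 7.76 against 0.984 FPKM, and *Slc40a1*, the iron exporter ferroportin, at 18.3 against 41.5 FPKM. Among calcium, sodium and chloride channels, 4 of 40 were toward *Dnmt3a* KO, all of which entered only through that library, and none of the 31 with 1 FPKM in each was toward it. They include the calcium channel subunit *Cacna2d3* at 3.66 against 0.239 FPKM. *P2rx3*, a channel opened by ATP, was toward *Dnmt3b* KO at 0.585 against 4.47 FPKM. Of 60 chromatin modifiers, none was toward *Dnmt3a* KO and 3 toward *Dnmt3b* KO (5%). Besides *Dnmt3a* itself, these were *Pcgf5*, a subunit of a Polycomb repressive complex, at 4.74 against 12.2 FPKM, and the histone deacetylase *Hdac4* at 9.396 against 22.6 FPKM. Of 301 zinc finger genes named Zfp, 6 were toward *Dnmt3a* KO and 5 toward *Dnmt3b* KO, or 1.99% and 1.66%. In the p53 list, 2 of 39 members were toward *Dnmt3a* KO (5.13%) and 3 toward *Dnmt3b* KO (7.69%). *Pmaip1*, a protein that starts apoptosis, was at 2.43 against 10.5 FPKM and *Fas*, a death receptor, at 12.97 against 5.88 FPKM.

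Toward *Dnmt3b* KO, the 2 largest ratios among the 15 genes were at *Ly6k* and *Slc25a31*, both known from germ cells. *Mmp13*, *Ankrd1* and *Cma2* had larger ratios than *Gpat2*, the next gene of this kind. Neither *Ly6k* nor *Gpat2* is on the germline and meiosis list. *Ly6k* (chromosome 15), a surface protein of testis that is anchored to the membrane by a lipid, was at 0.445 against 15.3 FPKM (log2 ratio -3.50), which stood for 2 to 3 against 58 to 83 reads. *Slc25a31*, the ADP/ATP carrier of germ cell mitochondria, was at 1.19 against 18.7 FPKM (log2 ratio -3.17, 25 against 331 reads). *Gpat2*, a mitochondrial acyltransferase of testis that takes part in piRNA formation, was at 0.339 against 6.24 FPKM (log2 ratio -2.44). In the germline and meiosis list, which holds *Slc25a31*, 17 of 59 genes reached 1 FPKM, 7 of them were higher in *Dnmt3b* KO (41.2%) and 0 in *Dnmt3a* KO (median log2 ratio -0.71). Of these 7 genes, 6 reached 1 FPKM only through *Dnmt3b* KO and *Slc25a31* did so in both libraries, so the count and the median describe the genes that passed the filter and support no difference of the list.

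The other 6 germline genes were low in *Dnmt3b* KO and lower in *Dnmt3a* KO. *Rnf212*, a factor of meiotic crossovers, was at 0.655 against 7.895 FPKM. *Tex12*, a protein of the synaptonemal complex, was at 3.93 FPKM in *Dnmt3b* KO (25 to 29 reads) and listed at 0 in *Dnmt3a* KO. *Mael*, which takes part in transposon silencing, was at 0.06800 against 2.84 FPKM. *Mov10l1*, a helicase of piRNA formation, and *Fkbp6*, a cochaperone of the same pathway, were at 2.14 and 2.06 FPKM in *Dnmt3b* KO and listed at 0 in *Dnmt3a* KO. *Nanos3*, an RNA-binding protein of germ cell precursors, was at 0.393 against 2.81 FPKM, no more than 14 reads. *Tex12* overlaps *Il18*, a cytokine gene on the opposite strand, which differed in the other direction at 5.11 against 0.662 FPKM. The library kit marks the strand, but whether the counting used it is not given in the sources used here. In the 4 MEF libraries from embryos, *Ly6k*, *Rnf212*, *Tex12* and *Mov10l1* were listed at 0 and the highest value of *Slc25a31* was 0.425 FPKM.

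**Figure D3:**
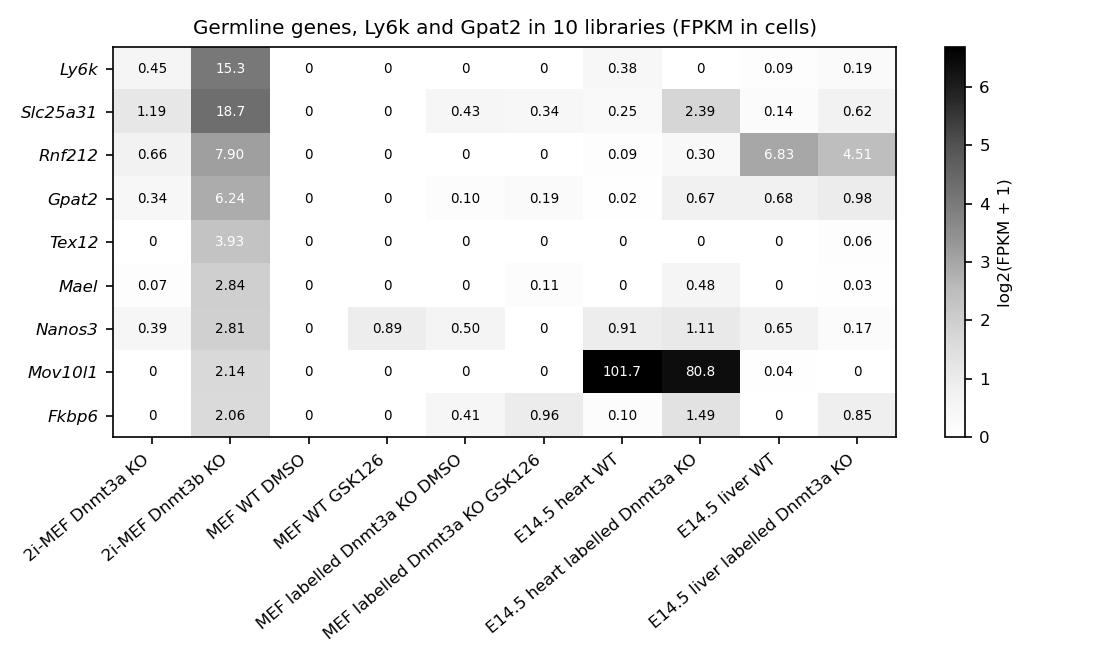
FPKM of the 7 germline genes higher in *Dnmt3b* KO, with *Ly6k* and *Gpat2*, in the 10 RNA-seq libraries (columns), with shading by log2(FPKM + 1). The *Dnmt3b* KO column holds the highest value of each row but *Mov10l1*, which was at 102 and 80.8 FPKM in the E14.5 heart libraries.

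Promoters of *Slc25a31*, *Rnf212*, *Tex12*, *Mael* and *Gpat2* are shown for their CpG sites, since promoters of germline genes are known as places of methylation in somatic cells. The 250 bases before each start (RefSeq, GRCm38.p6) are read along the gene, with CpG sites in capitals. *Slc25a31* lies at chr3:40708621-40708870 on the plus strand, with 18 CpG sites, and *Rnf212* at chr5:108775028-108775277 on the minus strand, with 16. *Tex12* lies at chr9:50561269-50561518 on the minus strand, with 20 sites, and *Mael* at chr1:166238745-166238994 on the minus strand, with 18. *Gpat2* lies at chr2:127424949-127425198 on the plus strand, with 11.
Slc25a31: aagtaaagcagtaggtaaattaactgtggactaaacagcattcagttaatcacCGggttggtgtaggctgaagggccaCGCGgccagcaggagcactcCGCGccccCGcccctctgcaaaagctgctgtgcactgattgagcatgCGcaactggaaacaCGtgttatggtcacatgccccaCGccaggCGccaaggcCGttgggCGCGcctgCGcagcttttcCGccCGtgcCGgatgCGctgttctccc
Rnf212: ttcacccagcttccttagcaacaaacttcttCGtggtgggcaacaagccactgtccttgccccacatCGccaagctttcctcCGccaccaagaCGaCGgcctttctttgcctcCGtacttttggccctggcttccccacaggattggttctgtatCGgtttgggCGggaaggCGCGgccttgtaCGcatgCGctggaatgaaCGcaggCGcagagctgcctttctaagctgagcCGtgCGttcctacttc
Tex12: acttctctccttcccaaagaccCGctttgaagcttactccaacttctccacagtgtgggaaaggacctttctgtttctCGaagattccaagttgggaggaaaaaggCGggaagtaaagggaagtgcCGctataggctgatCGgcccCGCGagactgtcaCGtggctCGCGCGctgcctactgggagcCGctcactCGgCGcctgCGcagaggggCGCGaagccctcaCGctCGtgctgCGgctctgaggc
Mael: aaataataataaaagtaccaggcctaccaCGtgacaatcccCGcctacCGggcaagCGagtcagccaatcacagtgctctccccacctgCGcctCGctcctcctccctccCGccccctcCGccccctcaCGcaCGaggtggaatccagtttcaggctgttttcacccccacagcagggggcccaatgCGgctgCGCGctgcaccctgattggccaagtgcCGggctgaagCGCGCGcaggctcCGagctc
Gpat2: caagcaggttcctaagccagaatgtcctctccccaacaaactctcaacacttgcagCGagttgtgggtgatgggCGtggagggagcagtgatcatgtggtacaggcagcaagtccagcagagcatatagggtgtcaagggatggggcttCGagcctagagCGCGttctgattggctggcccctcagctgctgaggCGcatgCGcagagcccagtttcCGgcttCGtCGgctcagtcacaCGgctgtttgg

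The letters CACGTG, an E-box whose central bases form a CpG site and which reads the same on both strands, were searched in windows from 250 bases before to 50 bases after the start. They were found in 6 of the 7 germline promoters that belonged to genes higher in *Dnmt3b* KO, in 9 of the 16 expressed germline genes with a window and in 18 of the 51 listed genes with one (35.3%). Of the 35 listed genes with a window that stayed under 1 FPKM in both libraries, 9 held them (25.7%). As 6 of the 7 genes reached 1 FPKM only through *Dnmt3b* KO, their share supports no difference. All 32817 promoter windows held the letters CACGTG in 7.15%, and those of the 9030 genes with a window among the 11635 in 10.6%. Within the printed 250 bases, *Slc25a31*, *Tex12* and *Mael* hold 1 match each, and *Igfbp2* holds 1 as well. The letters TCCCGC were found in 4 of the 7 germline promoters and in 19.97% of all windows, on either strand, but also in 37.6% of the windows of expressed genes. A match describes these letters only.

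Proteases of the matrix formed the next group. Of 30 metalloproteinases and inhibitors, 5 were higher in *Dnmt3b* KO (16.7%) and 2 in *Dnmt3a* KO. Of the 5, *Mmp10* and *Mmp9* had 1 FPKM in *Dnmt3b* KO only. *Mmp13*, collagenase 3, was at 16.4 against 122 FPKM (log2 ratio -2.83). *Mmp12*, *Mmp3* and *Mmp10*, which follow *Mmp13* on chromosome 9 and encode an elastase and stromelysins, were at 1.69 against 6.704 FPKM, 13.1 against 42.8 FPKM and 0.1203 against 1.79 FPKM. *Mmp9*, a gelatinase on chromosome 2, was at 0.353 against 3.37 FPKM. The other gelatinase, *Mmp2*, was higher in *Dnmt3a* KO at 774 against 368 FPKM, a larger difference in FPKM than that of *Mmp13*. *Plau*, the urokinase plasminogen activator, was higher in *Dnmt3b* KO at 20.3 against 52.7 FPKM, as was *Tfpi2*, an inhibitor of serine proteases, at 5.62 against 20.9 FPKM.

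Serine protease genes of mast cells and lymphocytes on chromosome 14 are given next. *Cma2*, a mast cell chymase, was at 0.368 against 7.89 FPKM (log2 ratio -2.70, 3 against 47 to 54 reads). Other genes of the same cluster, picked after their values were seen and so no evidence for the cluster as a whole, were *Mcpt8* at 1.44 against 7.54 FPKM, *Gzme* at 1.28 against 4.42 FPKM and *Gzmd* at 1.08 against 4.14 FPKM. *Gzmc* was at 1.101 FPKM in *Dnmt3b* KO and listed at 0 in *Dnmt3a* KO. *Cma2* and *Gzmc* reached 1 FPKM only through *Dnmt3b* KO. These granzyme genes are similar in sequence, and reads could have been divided among them by the counting. In the 4 MEF libraries, *Cma2*, *Gzmc*, *Gzmd* and *Gzme* did not exceed 0.373 FPKM, and the highest value of *Mcpt8* was 2.68 FPKM.

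Contractile genes were found on both sides. In the smooth muscle and myofibroblast list, 3 of 28 members were higher in *Dnmt3b* KO and 1 in *Dnmt3a* KO (median log2 ratio -0.21), or 10.7% and 3.57% beside 2.19% and 4.31% of all genes. *Cnn1*, or calponin, was at 100.2 against 253 FPKM, *Myh11*, the smooth muscle myosin heavy chain, at 4.64 against 15.3 FPKM, and *Des*, or desmin, at 16.7 against 39.2 FPKM. *Acta2*, smooth muscle actin, was at 1860.1 against 2825 FPKM (log2 ratio -0.60), under 2-fold. *Rgs5*, known from pericytes, had the opposite direction at 20.01 against 2.099 FPKM. Of 11 expressed skeletal muscle genes, 4 were higher in *Dnmt3b* KO (36.4%), such as *Acta1* at 5.31 against 16.99 FPKM, and 2 in *Dnmt3a* KO, such as *Tnnt3* at 8.42 against 2.41 FPKM. Of the 4, 3 reached 1 FPKM only through *Dnmt3b* KO, and among the 6 members at that level in each library 1 was higher in each direction. *Spp1*, or osteopontin, was the most abundant of the 255 genes at 453 against 1403 FPKM (log2 ratio -1.63), followed by the protease inhibitor *Ctla2a* at 181 against 453 FPKM.

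Glycolysis and hypoxia response genes had 3 of 37 members higher in *Dnmt3b* KO and 0 in *Dnmt3a* KO (median log2 ratio -0.32), which is 8.11% beside 2.19% of all genes. *Slc2a1*, the glucose transporter GLUT1, was at 19.4 against 42.97 FPKM, and *Slc16a3*, which exports lactate, at 20.9 against 43.1 FPKM. *Gapdh*, often used as a reference gene, was at 696 against 1002 FPKM (log2 ratio -0.52) and *Actb* at 3540.4 against 4833 FPKM (log2 ratio -0.45). In the interferon response list, 3 of 41 members were higher in *Dnmt3b* KO and 1 in *Dnmt3a* KO (median log2 ratio -0.27), or 7.32% and 2.44% beside 2.19% and 4.31% of all genes. *Irf7*, a transcription factor that amplifies the response, was at 1.64 against 8.95 FPKM and the ubiquitin-like *Isg15* at 9.23 against 21.6 FPKM, while *Ifitm1* was at 17.1 against 2.87 FPKM. The last of these belongs to a family of similar genes. Other genes among the 15 largest toward *Dnmt3b* KO were *Slfn2*, a schlafen protein, at 0.438 against 8.27 FPKM, *Sprr2k*, of the cornified envelope, at 1.05 against 11.503 FPKM, and *Ppm1k*, a mitochondrial phosphatase of amino acid breakdown, at 0.836 against 7.74 FPKM. *Gatm*, which takes part in creatine synthesis, was at 1.21 against 8.44 FPKM, and the predicted gene *Gm20479* at 0.626 against 8.73 FPKM.

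Of 15 antigen presentation genes (median log2 ratio 0.64, beside 0.03 over all genes), 2 passed 2-fold toward *Dnmt3a* KO (13.3%) and none toward *Dnmt3b* KO. *Psmb9*, a subunit of the immunoproteasome, was at 2.61 against 0.1896 FPKM, and *H2-Q4*, an MHC class I gene with similar copies that can share reads, at 10.3 against 4.66 FPKM. Of 12 Notch pathway genes, the target gene *Heyl* alone passed 2-fold, at 5.65 against 2.21 FPKM. In the remaining lists, numbers toward *Dnmt3a* KO and toward *Dnmt3b* KO, in this order, were 2 and 1 of 11 for bone genes, 1 and 0 of 17 for retinoic acid genes and 3 and 1 of 22 for prostaglandin and steroid enzymes. They were 5 and 1 of 46 for matricellular and elastic fibre proteins, 1 and 3 of 19 for the plasminogen system and serpins and 5 and 2 of 26 for adhesion proteins of the immunoglobulin type. Tight and gap junction genes had 2 and 0 of 13, potassium channels 3 and 1 of 21 and ligand-gated receptors 3 and 2 of 20. Heat shock proteins and chaperones had 1 and 1 of 23, and metallothioneins and metal transport genes 0 and 1 of 15. Of the keratins, 0 and 1 of 5 passed in these directions, and of genes with Rik or Gm names 26 and 20 of 337. None of the 4 expressed pluripotency genes and 30 cytochrome P450 and aldehyde dehydrogenase genes differed 2-fold. Entry through the higher library alone held for 4 of the 5 adhesion proteins of the immunoglobulin type toward *Dnmt3a* KO, 2 of the 3 potassium channels, 2 of the 5 matricellular and elastic fibre proteins, 2 and 2 ligand-gated receptors, and 18 and 15 genes with Rik or Gm names. In lists for which no such number is given, it held for at most 2 genes in either direction.

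**Figure D4:**
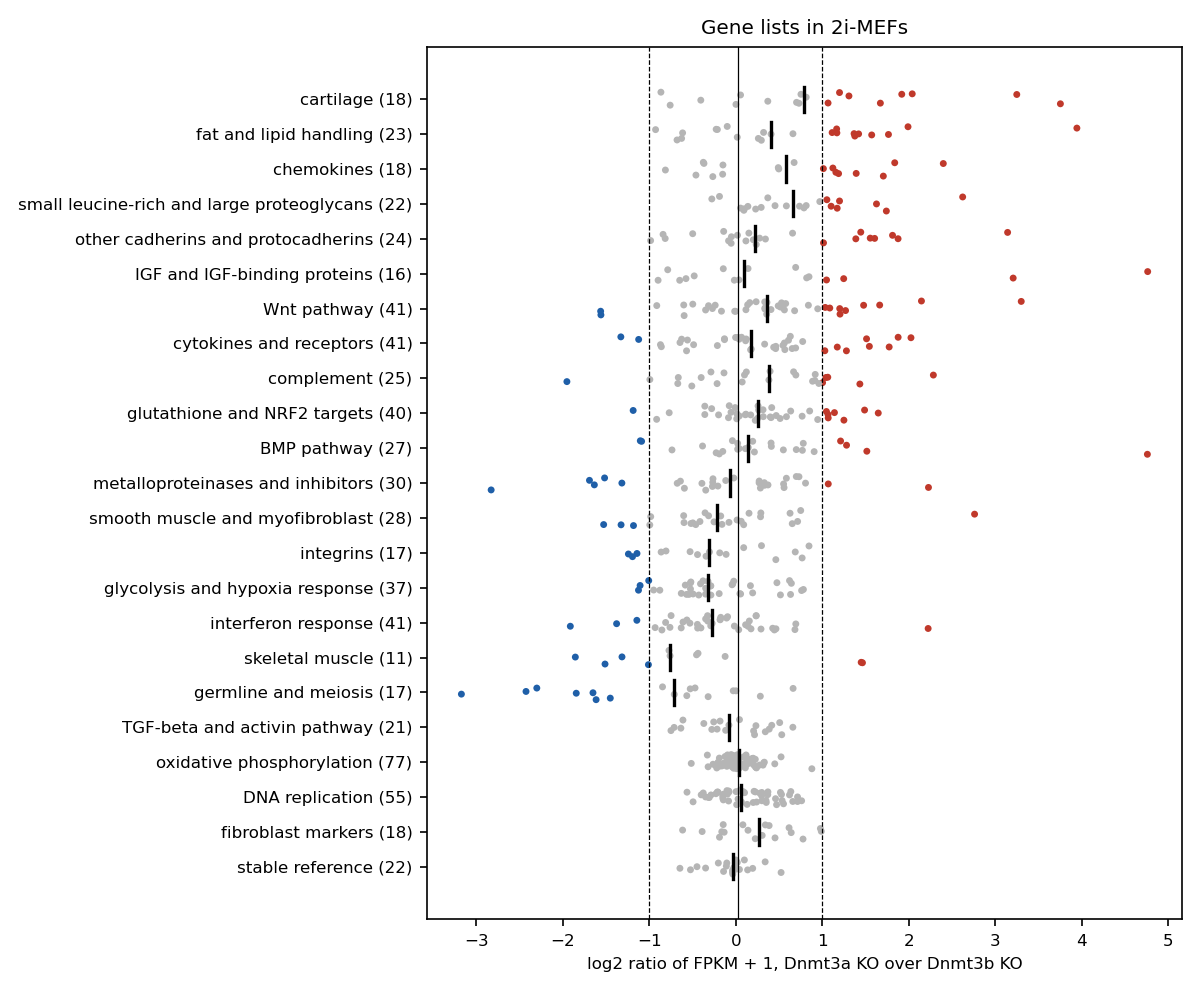
Log2 ratio of FPKM + 1 in *Dnmt3a* KO over *Dnmt3b* KO for the members of 23 gene lists (number of members in parentheses), with 1 point per gene, a black bar at the list's median, the thin line at the median of all 11635 genes and dashed lines at 2-fold. Medians ranged from -0.76 for skeletal muscle to 0.78 for cartilage genes, and with 1 FPKM required in each library those of skeletal muscle, germline, cartilage and chemokine genes were -0.45, -0.40, 0.37 and 0.59.

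Basic cell functions had like levels in both libraries. None of the 77 oxidative phosphorylation genes, 55 DNA replication genes, 35 cholesterol and fatty acid synthesis genes and 22 stable reference genes differed 2-fold in either direction, with median log2 ratios of 0.04, 0.06, -0.12 and -0.03. Of 55 mitosis genes, 1 was higher in *Dnmt3a* KO, and of 74 ribosomal protein genes, 1 was higher in *Dnmt3b* KO. The latter was *Rpl39l*, a copy of *Rpl39* used in germ cells, at 7.22 against 25.5 FPKM. ER stress genes had 1 of 40 members higher in *Dnmt3b* KO, the secreted factor *Fgf21* at 1.46 against 5.09 FPKM. Among 43 imprinted genes, 1 was higher in *Dnmt3a* KO (2.33%) and 2 in *Dnmt3b* KO (4.65%). Several of them were low in both libraries when set beside the MEFs from embryos. *Igf2*, a fetal growth factor, was at 2.301 against 1.04 FPKM and ranged from 4320 to 5158 FPKM in those MEFs. *Cdkn1c*, a cell cycle inhibitor, was at 0.196 against 2.18 FPKM and ranged from 439.96 to 574 FPKM there, and *Grb10*, an adaptor that dampens insulin signals, was at 2.56 against 1.17 FPKM and ranged from 175 to 389.9 FPKM. 

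Markers of other cell types were examined, because fibroblast cultures can hold other cells. Of 17 macrophage and leukocyte markers, 7 reached 1 FPKM and 2 were higher in *Dnmt3a* KO, *Fcer1g* at 1.74 FPKM against a listed 0 and *Laptm5* at 1.93 against 0.0972 FPKM. Their summed level was 42.7 against 29.5 FPKM. The defining markers were at or near 0, with *Adgre1* at 0.0939 FPKM and listed at 0, *Ptprc* at 0.0207 against 0.0247 FPKM and *Csf1r* at 0.748 against 0.208 FPKM. *Ptpn6*, a phosphatase of blood cells, was at 5.42 against 0.0707 FPKM, and the C1q genes above are products of macrophages. Of 14 endothelial markers, 5 reached 1 FPKM and 2 were higher in *Dnmt3a* KO (*Esam* at 4.78 against 0.448 FPKM and *Plvap* at 2.56 against 0.488 FPKM), with *Cdh5* listed at 0 in both libraries and *Pecam1* at 0.112 FPKM and listed at 0. The summed level of the endothelial list was 30.3 against 13.4 FPKM, and the 5 expressed members had a median log2 ratio of 0.84 with none below 0, although 3 of them reached 1 FPKM only through *Dnmt3a* KO. *Kdr*, under 1 FPKM in both libraries, had the opposite direction at 0.112 against 0.324 FPKM. The VEGF receptors *Flt1* and *Flt4*, described above and not on this list, were higher in *Dnmt3b* KO. The 7 expressed macrophage and leukocyte markers were also all above 0, 4 of them at 1 FPKM only in *Dnmt3a* KO. The part of these cells in the results was not tested. Of 15 epithelial markers, 3 reached 1 FPKM and *Krt18* was higher in *Dnmt3b* KO at 1.14 against 7.27 FPKM. Of 10 mesothelial markers, 9 reached 1 FPKM and *Wt1* was higher in *Dnmt3b* KO at 1.57 against 6.22 FPKM. None of 12 red blood cell markers reached 1 FPKM. Among neural markers, *Fabp7* was at 5.16 against 1.27 FPKM and *Nes* at 11.99 against 27.3 FPKM, and none of the 7 expressed Schwann cell and melanocyte markers differed 2-fold.

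Developmental transcription factor families were set apart. Of their 183 expressed members, 26 were higher in *Dnmt3a* KO (14.2%) and 10 in *Dnmt3b* KO (5.46%). The median log2 ratio was 0.09, and 13 of the 26 entered only through *Dnmt3a* KO. The largest ratio after *Pax8* was at *Dlx6*, at 4.71 FPKM in *Dnmt3a* KO and listed at 0 in *Dnmt3b* KO, and its neighbour *Dlx5* was at 3.67 against 0.874 FPKM. *Emx2*, toward *Dnmt3b* KO, was at 9.37 against 29.9 FPKM. The study lists genes as targets of each enzyme from methylation measured in these KO 2i-MEFs, so the lists are not independent of the genotypes. Of the 215 expressed DNMT3A targets, 20 (9.30%) were higher in *Dnmt3a* KO and 8 (3.72%) in *Dnmt3b* KO, beside 4.31% and 2.19% of all genes. Of the 20, 11 reached 1 FPKM only through *Dnmt3a* KO, while all 8 did so in both libraries. Outside the developmental families, 15 of 173 were higher in *Dnmt3a* KO, 7 of them through that filter alone, and 5 in *Dnmt3b* KO. *Apoe*, *Pth1r* and *Zfp423* above belong to this list, which had a median log2 ratio of 0.11.

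The DNMT3B targets held 88 expressed genes. Of these, 9 (10.2%) were higher in *Dnmt3a* KO and 7 (7.95%) in *Dnmt3b* KO. Of these, 8 of the 9 and 5 of the 7 had 1 FPKM in the higher library only, which leaves 1 and 2, so the shares support nothing about the list. Toward *Dnmt3b* KO stood *Ly6k*, *Slc25a31*, *Tex12*, *Mael*, *Hp*, *Cdkn1c* and *Gm44973*. Toward *Dnmt3a* KO, the largest ratios were at *Tmtc1*, a membrane protein of the endoplasmic reticulum, at 12.4 against 0.693 FPKM, and at the matrilin gene *Matn4*. *Il18*, *Celsr2* and the sodium channel gene *Scn8a*, at 2.55 FPKM in *Dnmt3a* KO and listed at 0 in *Dnmt3b* KO, belonged to the same side. Genes named in both lists, 26 in all, were left out, and the 88 genes had a median log2 ratio of 0.09.

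Promoters of the genes that differed held fewer CpG sites, by their medians, than those of other genes. A promoter window was found for 354 of the 501 genes higher in *Dnmt3a* KO, 179 of the 255 higher in *Dnmt3b* KO and 8497 genes under 2-fold. The median ratio of observed to expected CpG sites was 0.643, 0.531 and 0.791, respectively. A ratio of at least 0.6 was reached by 54.2%, 43.02% and 77.5% of the genes. The 7 germline genes higher in *Dnmt3b* KO had a median of 0.826. *Mael* (0.7797), *Mov10l1* (0.674) and *Nanos3* (0.131, with 3 CpG sites in its window) lay below the median of the genes under 2-fold. These shares describe sets of genes and were not tested. Genes under 2-fold at like FPKM levels were not compared separately, and genes without a window could not be counted.

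**Figure D5:**
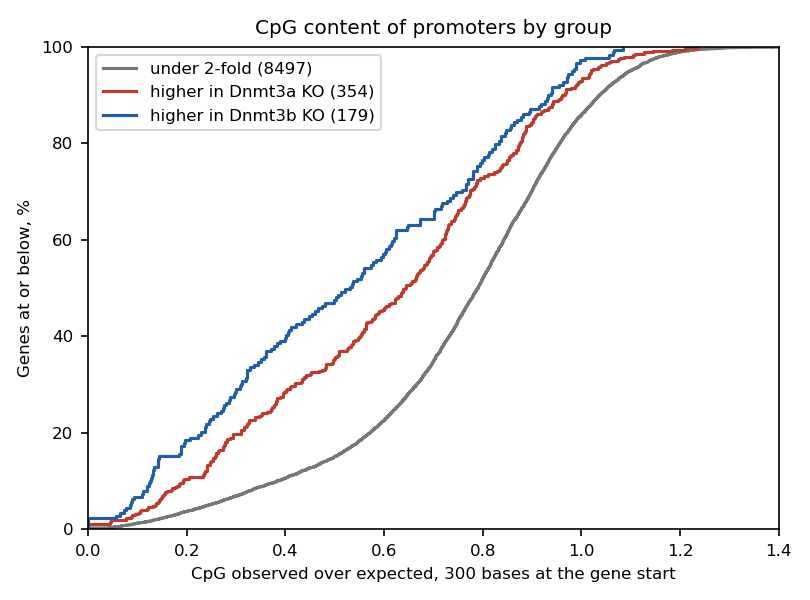
Cumulative share of genes (vertical axis, %) by the ratio of observed to expected CpG sites in the 300 bases at the gene start (horizontal axis), for the 354 genes higher in *Dnmt3a* KO, the 179 higher in *Dnmt3b* KO and the 8497 genes under 2-fold with a promoter window. Both curves of genes that differed lie above that of the other genes over most of the range, with medians of 0.643 and 0.531 against 0.791.

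MEFs taken from embryos without an ES cell step gave another scale for the levels. Their 4 libraries (labelled WT or *Dnmt3a* KO, each with DMSO or the EZH2 inhibitor GSK126) came from male embryos labelled C57BL6 at E14.5 and passage p1. The study describes its *Dnmt3a* WT and null MEFs as offspring of mice heterozygous for a *Dnmt3a* KO allele, which it lists on a mixed B6;129S4 background, so strain, sex and origin differ from the 2i-MEFs. In these MEFs *Dnmt3a* was higher in the libraries labelled KO (85.7 FPKM with DMSO and 84.5 with GSK126) than in WT (26.1 and 19.3), against the label. They also held macrophage transcripts, as *Adgre1* was at 22.03 to 45.7 FPKM. For the 501 genes higher in *Dnmt3a* KO, the *Dnmt3a* KO 2i-MEF value exceeded all 4 MEF libraries at 275 (54.9%), beside 38.3% of all 11635 genes, and the *Dnmt3b* KO value lay below all 4 at 349 (69.7%), beside 31.3%. For the 255 genes higher in *Dnmt3b* KO, the *Dnmt3b* KO value exceeded all 4 at 178 (69.8%), beside 36.8%, and the *Dnmt3a* KO value lay below all 4 at 104 (40.8%), beside 25.7%. The choice of the genes by their ratio raises these shares by itself, and the same 4 libraries serve both counts.

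Single genes showed each of these cases. *Abcb1a* was at 19.6 FPKM in *Dnmt3a* KO, while *Dnmt3b* KO, at 0.372 FPKM, lay within the MEF range of 0.172 to 0.618 FPKM. *Eln*, at 2010.4 against 647 FPKM, exceeded the MEF range of 63.3 to 317 FPKM in both KO libraries, and *Sfrp4*, at 84.2 against 18.2 FPKM, also exceeded its range of 0.996 to 4.55 FPKM. *Penk*, at 21.7 against 0.6296 FPKM, lay below the MEF range of 387 to 1137 FPKM in both, as did *Col2a1*, with a MEF range of 60.2 to 223 FPKM. *Igfbp4* lay above the MEF range of 589 to 678 FPKM in *Dnmt3a* KO and below it in *Dnmt3b* KO. Toward *Dnmt3b* KO, *Mmp13* and *Ankrd1* exceeded the MEF ranges of 4.43 to 9.25 FPKM and 3.41 to 7.81 FPKM in both KO libraries, and *Slfn2* fell within its range of 7.44 to 16.2 FPKM in *Dnmt3b* KO alone.

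Genes of the 2i-MEF comparison were also followed in the MEFs labelled *Dnmt3a* KO or WT. With DMSO, 295 of the 11635 genes (2.54%) were higher in the library labelled KO and 116 (0.997%) were higher in WT. Of the 501 genes, 44 were among the former (8.78% of the 501 and 14.9% of the 295) and 20 among the latter (3.99% of the 501 and 17.2% of the 116). Of the 255 genes, 17 were among the former (6.67% of the 255) and 17 among the latter. With GSK126, 197 genes (1.69%) were higher in the library labelled KO and 183 (1.57%) in WT, and 36 and 29 of the 501 genes were among them. Of the 255 genes, 18 were among the former and 29 among the latter. In both treatments the 501 and the 255 genes alike were found above the background in either direction. These genes were chosen for a large ratio between single libraries, and 194 and 96 of them stayed under 5 FPKM in the higher library. How far low or variable levels account for this excess was not tested, so it supports no shared change. Because the *Dnmt3a* transcript level of these MEFs goes against their labels, no direction by genotype was drawn from this comparison. A disrupted gene can still be transcribed, and the study reports *Pax8* as derepressed in its *Dnmt3a* KO MEFs, so the labels were not settled here.

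Genes that differed lay on every autosome. By chromosome, the median log2 ratio ranged from -0.0014 on chromosome 18 to 0.0669 on chromosome 8, and the share of genes higher in *Dnmt3a* KO from 2.86% on chromosome 16 to 5.65% on chromosome 9. The share higher in *Dnmt3b* KO ranged from 0.704% on chromosome 17 to 3.73% on chromosome 18. Next to each other among the expressed genes stood 78 pairs that both differed 2-fold, 58 of them in the same direction (43 toward *Dnmt3a* KO and 15 toward *Dnmt3b* KO) and 20 in opposite directions. The pairs in the same direction included *Igfbp2* and *Igfbp5*, *Apoc1* and *Apoe*, *Slc25a31* and the chaperone gene *Hspa4l* (at 4.599 against 13.4 FPKM), and the protease clusters above. Neighbours that overlap or are close paralogs can share reads, and chance pairs were not counted.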

How the data were processed

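RNA was sequenced from libraries made with a stranded mRNA kit. The authors trimmed and mapped the reads to mm10 and calculated FPKM with Cufflinks 2.2.1, and the deposited table gives 1 FPKM value per gene and library (10 RNA-seq libraries) with no read counts. The submitters' processing notes name TopHat2 2.1.0, Bowtie2 2.2.5 and cutadapt 1.9.1 among their tools. All columns of the table were assigned to samples (0 unused).

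Rows of the same symbol were summed, and the log2 ratio of FPKM + 1 was taken with Python 3.11.15, numpy 2.4.6 and pandas 2.3.3. FPKM values under 10 reads gave whole reads within 0.1 read at 97.7% of 1155 genes in *Dnmt3a* KO and 98.1% of 1018 in *Dnmt3b* KO. All of these genes had 1 annotated transcript. At a depth set beforehand 20% would fall so close by chance, but the depth was chosen on the same genes, so these shares are no test of it. For genes with several transcripts, read numbers rest on the shortest and the longest of them. The depth estimate was tested on a simulated library of 10000000 reads, where it gave 9999790. Read numbers carry no molecular identifiers.

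With 1 library per genotype, no test was made: lists were described by counts and medians beside those of all genes. Members and lists were chosen with earlier results of these data known. Named were the 15 genes with the largest log2 ratio in each direction (at least 5 FPKM in the higher library, a transcript of at least 500 bases, developmental transcription factor families left out), up to 3 members past 2-fold in each direction of each of 68 lists, the 3 largest developmental factors in each direction, and the genes that check the labels. Genes named beyond this rule, such as *Sox9*, *Acan*, *Pparg*, *Lpl*, *Cxcl12*, *Acta2*, *Igf2*, *Abcb1b*, the low germline genes and the granzymes, were added once their values were known. The alternatives tried were another pseudocount, other filters, a 4-fold threshold, centring and another treatment of repeated symbols. Promoters were RefSeq windows of GRCm38.p6, matched by symbol for 9030 of the 11635 genes. Counts of 2 lists are not reported here.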

Additional observations from a re-analysis of the deposited data

How the results depend on the processing

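With a pseudocount of 0.1 FPKM in place of 1, 836 genes were higher in *Dnmt3a* KO and 431 in *Dnmt3b* KO, beside 501 and 255. With a minimum mean of 5 FPKM these numbers were 238 and 128, and at a 4-fold threshold 75 and 18. In each of these settings more genes were toward *Dnmt3a* KO. Centring on the median, no filter on low values, the row with the highest mean for repeated symbols, and the filters chosen after the data were seen (a mean of at least 1 FPKM, transcripts of at least 500 bases) left both numbers within 1.5 times. The sign of a log2 ratio depends neither on the pseudocount nor on a filter, so the directions of named genes were no check. Results for lists were less stable. With a minimum mean of 5 FPKM, the number of members toward *Dnmt3a* KO moved by over 1.5 times in 30 of 64 lists and that toward *Dnmt3b* KO in 17, and 25 medians moved. With the pseudocount of 0.1 FPKM these were 21 and 27 of 67 lists, and 11 medians. With the minimum mean, the median log2 ratio changed sign for clustered protocadherins (0.18 to -0.72), metalloproteinases and inhibitors (-0.07 to 0.13) and the TGF-beta and activin pathway (-0.08 to 0.04), among others. When each library had to reach 1 FPKM, which was chosen after the data were seen, 306 and 165 genes were higher in *Dnmt3a* KO and *Dnmt3b* KO, and of 67 lists the number toward *Dnmt3a* KO moved in 24, that toward *Dnmt3b* KO in 9 and the median in 19. The median then was 0.37 for cartilage (9 members left), 0.30 for fat and lipid genes (19), 0.59 for chemokines (16), -0.25 for smooth muscle (27), -0.40 for germline genes (6) and -0.45 for skeletal muscle (6). With the pseudocount of 0.1 FPKM, the medians in this order were 1.59, 0.55, 0.62, -0.21, -1.38 and -1.06. With the minimum mean of 5 FPKM, they were 2.46, 0.14, 1.12, -0.41, -0.47 and -0.12. In the higher library 194 of the 501 and 96 of the 255 genes stayed under 5 FPKM. How depth affects the counts was not tested. No paired analysis was possible because each genotype has 1 library.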
